A study of Oryza sativa with 24 samples.

Results

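Young panicles of IR64, an indica variety of rice (Oryza sativa), that carried edits in 3 class II trehalose phosphate synthase genes, tps2, tps3 and tps6, were compared at the end and at the start of the sampled span of pollen development. The comparison is of 6 libraries out of 24 columns in the series, chosen by genotype and stage from their labels. These are 3 mutant libraries of stage 8, when pollen matures, and 3 mutant libraries of stage 5, when pollen mother cells form. Wild-type libraries of IR64 at stage 8 (3) and at stage 5 (3) served as the matching span without the edits. The mutant was made by gene editing in the same background, and all plants were grown in the same chamber regime. The labels give neither the edited alleles nor the number of independent edited lines, and they do not say how many panicles went into a library. They call the replicates biological, and p-values measure the spread between these libraries.

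Trehalose 6-phosphate is a sugar phosphate that plants use as a signal of sucrose supply. Class I trehalose phosphate synthases make it, whereas most class II members have little or no synthase activity in test assays and are thought to act in regulation. A rice panicle at these stages holds anthers, in which pollen mother cells undergo meiosis. The microspores they give rise to are fed by the tapetum, the inner layer of the anther wall, and later fill with starch and mature. The panicle also holds lemma, palea, pistils and branches. Pollen development is known for sequential gene programmes, with a late set of transcripts that is found mainly in maturing pollen.

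The libraries were whole panicles, so fewer cells of a type and less RNA per cell cannot be told apart. Genes are given by the identifiers of the count table, none of which (0 of 36099) matched the 39387 genes of the rice table used for names. The identifiers could therefore not be tied to the edited genes, to markers of pollen or tapetum, or to sequences, and the stage and genotype labels were not checked against such genes. At most 2 rising and 2 falling identifiers are named per comparison.

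Total counts were 11596245 to 12015912 in the mutant stage 8 libraries and 11398861 to 11932967 in the mutant stage 5 libraries, so depth differed little between the stages. The stage 8 libraries were far less alike than the stage 5 libraries. Pearson correlations of log2(CPM + 0.5) across 22883 genes were 0.871 to 0.93 within mutant stage 8, against 0.986 to 0.989 within mutant stage 5 (CPM, counts scaled to a fixed library size after TMM normalization, the trimmed mean of M values). Biological variation between replicates, as edgeR's common coefficient, reached 46.1% in mutant stage 8 and 11.5% in mutant stage 5. The wild-type libraries had 26% in stage 8 and 24.1% in stage 5. Across the span, mutant stage 8 libraries correlated with mutant stage 5 libraries at 0.737 to 0.802.

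Mutant stage 8 replicate 3 stood apart from its own group. It correlated with replicates 1 and 2 of mutant stage 8 at 0.871 to 0.902, and with the wild-type stage 8 libraries at 0.947 to 0.954. Replicates 1 and 2 of the mutant correlated with the wild-type stage 8 libraries at 0.902 to 0.934 and at 0.877 to 0.909. Of the 6 mutant libraries compared, replicate 3 was the one whose correlations with the wild-type libraries of its stage all exceeded those with its own group. Several results are therefore given with and without it.

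**Figure D1:**
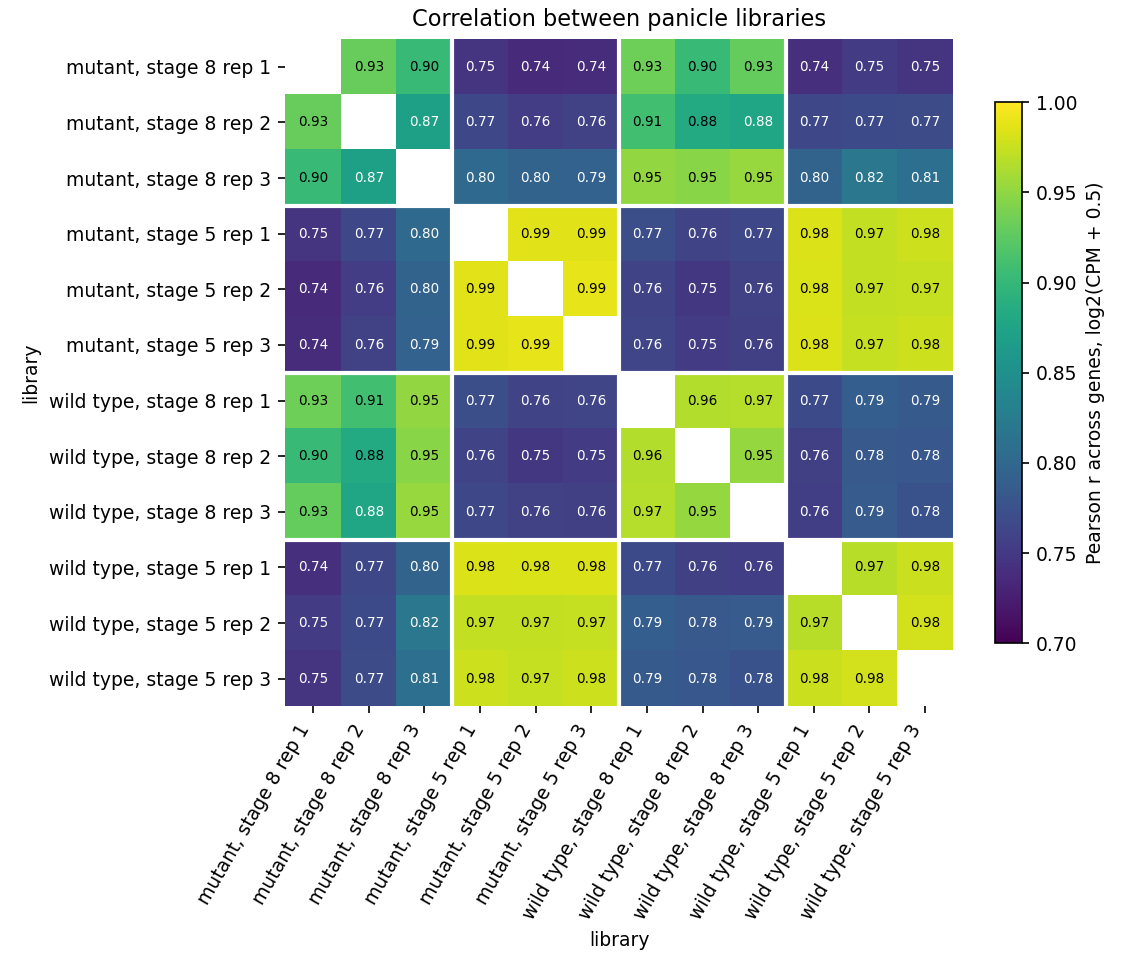
Pearson correlation across 22883 genes between libraries, mutant stage 8, mutant stage 5, wild-type stage 8 and wild-type stage 5 in both directions, with each cell giving r of log2(CPM + 0.5). Mutant stage 5 libraries were almost alike (0.986 to 0.989), and mutant stage 8 replicate 3 correlated better with wild-type stage 8 (0.947 to 0.954) than with the other mutant stage 8 libraries (0.871 to 0.902).

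More genes reached 1 CPM at stage 8 than at stage 5. At 1 CPM or more, 21397, 20514 and 20883 genes were found in mutant stage 8 replicates 1, 2 and 3, against 18948, 18814 and 18833 in the mutant stage 5 replicates. The stages did not overlap, and the means differed by 2066 genes, 20931 ± 443 at stage 8 and 18865 ± 72.5 at stage 5 (SD, n = 3 each). The two-sided exact permutation test gave p = 0.1, the smallest that 3 against 3 libraries can give. Genes with any count overlapped between the stages. They numbered 25059, 22410 and 23894 in mutant stage 8 replicates 1, 2 and 3, against 23203, 23017 and 23066 at mutant stage 5. The extra genes at 1 CPM did not come with a clearly different concentration of the counts. The 100 most abundant genes of each library took 13.5%, 13.9% and 11.5% of the counts at stage 8, against 11.9%, 11.4% and 12% at stage 5. These groups overlapped (two-sided exact permutation p = 0.3), and replicate 3 of stage 8 was the lowest of its group. The difference was 1.93 percentage points without replicate 3 and 0.74 percentage points without replicate 2, against 1.2 percentage points with all libraries.

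The stage change reached a large share of the measured genes. Of 20927 genes tested, 9044 (43.2%) passed a Benjamini-Hochberg adjusted p of 0.05 in edgeR's quasi-likelihood test of the 6 mutant libraries. Of these, 5106 (24.4% of tested genes) were higher at stage 8 and 3938 (18.8%) were lower. In 8890 of the 9044 called genes (98.3%) the 3 libraries of one stage lay wholly above those of the other, against 58.8% of all tested genes. A further 3413 genes had stages that did not overlap but were not called. The 95% interval of the log2 change lay within 1 on either side of 0 for 5731 genes (27.4%), so for these a 2-fold change in either direction was outside the interval. The number of called genes was 8118, 10775 and 10796 without mutant stage 8 replicates 1, 2 and 3. It was 5925 and 5852 without mutant stage 5 replicates 2 and 3, and genes called lower were 2614, 2454 and 2420 without stage 5 replicates 1, 2 and 3.

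Rises were larger than falls. The median log2 change was 2.28 among the 5106 genes that rose and -1.18 among the 3938 that fell, against 0.05 over all tested genes, and both medians were the same when genes at 0 in one stage were put at a floor of 3 counts over the group. On that footing 2809 genes rose at least 4-fold (55% of those that rose) and 851 fell at least 4-fold (21.6% of those that fell). At least 64-fold changes were seen for 593 rising and 12 falling genes.

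The 2 directions also differed in where the genes stood at the other end of the span. Of the genes that rose, 1640 (32.1%) averaged under 1 CPM at stage 5 and 1488 (29.1%) averaged 1 to 10 CPM there. Of the genes that fell, 249 (6.32%) averaged under 1 CPM at stage 8, and 2423 (61.5%) still averaged 10 to 100 CPM. Most falling genes were thus lower but still measurable in mature-stage panicles, whereas many rising genes had been scarcely detectable when pollen mother cells formed.

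The balance of directions shifted with the level of the gene. Among 2204 genes that averaged 100 CPM or more over the 6 libraries, 445 rose (20.2%) and 749 fell (34%). Among 6335 genes that averaged 1 to 10 CPM, 1812 rose (28.6%) and 521 fell (8.22%). The median standard error of the log2 change was 0.182 in the abundant class and 0.628 in the 1 to 10 CPM class. A small change in either direction was thus harder to call in a weakly expressed gene, and its part in the shifted balance was not tested.

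**Figure D2:**
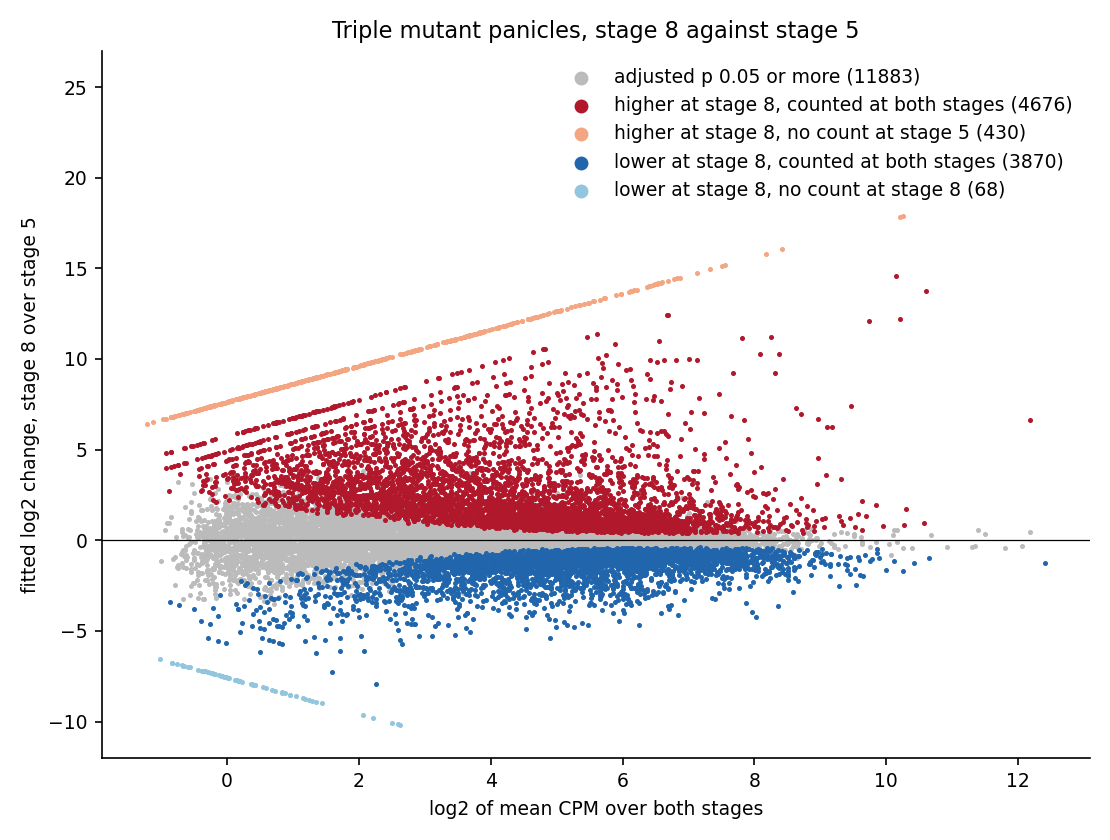
Fitted log2 change of each of 20927 genes in the mutant, stage 8 over stage 5, against the log2 of its mean CPM over both stages, with called genes in red (higher) and blue (lower) and uncalled genes in grey. Pale points are the 430 rising and 68 falling genes with no count in one stage, which form straight lines because their fitted change depends on the prior count, and rises reach farther from 0 than falls.

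The most abundant transcripts turned over in part. Of the 100 genes with the highest mean CPM at mutant stage 8, 45 were also among the 100 highest at mutant stage 5. Each list was chosen by its level at one end of the comparison, which favours one direction, so the calls within it are a description. Of the stage 8 list, 57 had risen, 11 had fallen, 11 averaged under 1 CPM at stage 5 and 4 had no count there. Of the stage 5 list, 63 had fallen and 5 had risen, and the lowest of them still averaged 46.5 CPM at stage 8. Over all tested genes 24.4% rose and 18.8% fell. No gene of the stage 5 list was therefore lost from the panicle.

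OsIR64_02g0025330 had the largest gain in CPM. It stood at 7120, 15200 and 5290 CPM in mutant stage 8 replicates 1, 2 and 3, against 118, 87.6 and 82.9 CPM in the mutant stage 5 libraries. The stages were far apart, and replicate 2 was the highest of the stage 8 libraries. It ranked 1 by mean CPM at stage 8 and 2532 at stage 5. The log2 change was 6.65 (SE 0.48, edgeR adjusted p = 6.15e-05). In the mutant libraries between, it had 553 and 668 CPM at stage 6 and 4360 CPM at stage 7, so it was higher at each later stage. The wild-type log2 change was 6.14 (SE 0.24), and the mutant change exceeded it by 0.49, with a 95% interval of -0.43 to 1.41.

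OsIR64_01g0022770 had the largest fitted rise. It had no count in the 3 mutant stage 5 libraries and stood at 3340, 2320 and 1640 CPM in the mutant stage 8 replicates. Against a floor of 3 counts over the stage 5 group, the stage 8 mean was at least 28700-fold higher and the lowest stage 8 library at least 19400-fold higher (edgeR adjusted p = 3.15e-05). It had no count in either mutant stage 6 library and 370 CPM in the mutant stage 7 library. Its appearance was therefore later than the first rise of OsIR64_02g0025330.

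OsIR64_11g0025240 lost the most CPM. It stood at 3800, 2400 and 3000 CPM in the mutant stage 8 libraries, against 7720, 7650 and 8010 CPM in the mutant stage 5 libraries, where it was the most abundant gene by mean (rank 1, and rank 7 at stage 8). The stages did not overlap, and the log2 change was -1.28 (SE 0.21, edgeR adjusted p = 0.00191). Its level at mutant stage 6 was 8530 CPM, above every mutant stage 5 library, and 7310 CPM, below every one. At stage 7 it was 5620 CPM. The change was not past a 2-fold minimum (edgeR adjusted p = 0.141). In wild type the log2 change was -1.28 as well (SE 0.20), and the difference between the genotypes was -0.01, with a 95% interval of -0.62 to 0.59.

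OsIR64_11g0011350 had the largest fitted fall. It had no count in the mutant stage 8 libraries, against 14.8, 9.42 and 12.6 CPM in the mutant stage 5 libraries. The stage 8 group was at least 152-fold lower by the stage 5 mean and at least 116-fold lower by the lowest stage 5 library, against a floor of 3 counts over the stage 8 group (edgeR adjusted p = 0.000306). It stood at 2.68 and 1.4 CPM at mutant stage 6 and 1.43 CPM at stage 7, below every mutant stage 5 library.

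**Figure D3:**
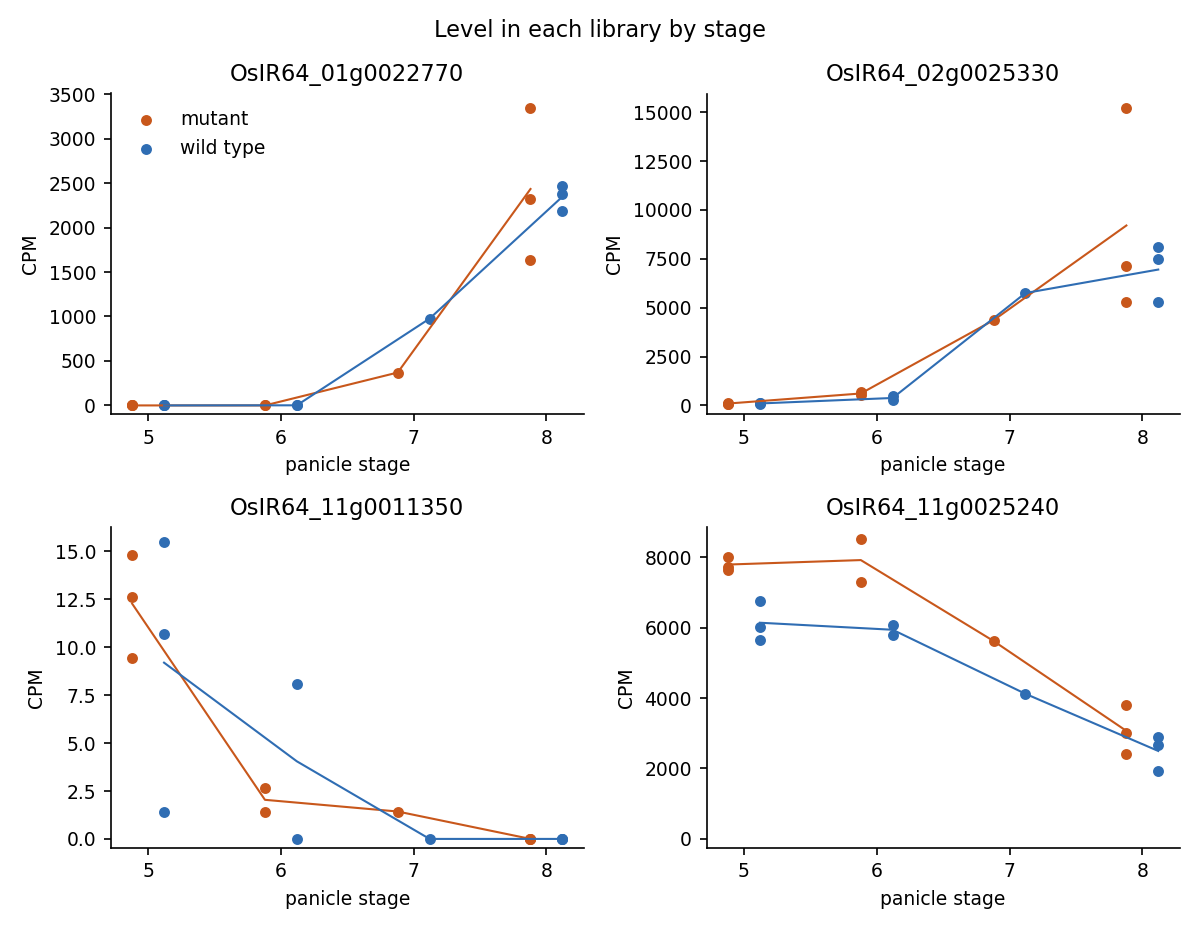
CPM in each library (points) and stage mean (lines) of the 4 named genes by panicle stage, mutant in orange left of wild type in blue. OsIR64_01g0022770 appears at stage 7 in the mutant and reaches 1640 to 3340 CPM at stage 8, OsIR64_02g0025330 reaches 15200 CPM in 1 mutant stage 8 library, OsIR64_11g0011350 is at 0 in all stage 8 libraries, and OsIR64_11g0025240 is lower at stage 8 than at stage 5 in both genotypes.

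A set of 370 genes had no count in any mutant stage 5 library and at least 1 CPM in each mutant stage 8 library. They were chosen by these values, which are given as a description. Their median level at stage 8 was 7.56 CPM, 156 of them averaged at least 10 CPM, 34 at least 100 CPM and 2 at least 1000 CPM, with a highest mean of 2434 CPM. Together they took 2.17% and 2.06% of the counts in mutant stage 8 replicates 1 and 2 and 0.912% in replicate 3. Replicate 3 held the lowest level of the stage for 237 of the 370 genes. In 58 of the genes the highest and lowest stage 8 libraries differed by more than 10-fold, and in 80 by less than 2-fold. The set held 697 genes when replicate 3 was left out.

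In libraries that played no part in that choice, the set was already partly present at the middle stages. At mutant stage 6, 204 of the 370 genes had a count in at least 1 of 2 libraries, and 20 reached 1 CPM in both. At mutant stage 7, 179 reached 1 CPM in the 1 library, and 25 were above every stage 8 library there. The set took 0.0332% and 0.0529% of the counts at mutant stage 6 and 0.383% at mutant stage 7. In wild type, 307 of the 370 reached 1 CPM in each stage 8 library, 3 had no count at stage 8, and 241 had no count at stage 5. Wild type alone, by the same rule, gave 429 genes, and 200 genes met the rule in both genotypes (54.1% of the mutant set and 46.6% of the wild-type set).

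The reverse set was small and weakly expressed. Just 55 genes had at least 1 CPM in each mutant stage 5 library and no count at mutant stage 8, with a median of 2.28 CPM and a highest mean of 12.3 CPM at stage 5. Of these, 33 still had a count in the mutant stage 7 library and 14 were at 1 CPM or more there. In wild type, 37 of the 55 had no count at stage 8 and 38 had 1 CPM or more in each stage 5 library. The set held 96 and 90 genes without mutant stage 8 replicates 3 and 1.

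The spread within stage 8 was carried by many genes. Of 14115 genes that averaged at least 10 CPM, the highest and lowest of the 3 mutant libraries differed by more than 2-fold for 3695 genes (26.2%) at stage 8 and for 249 (1.76%) at stage 5. The median ratio was 1.58 at stage 8 and 1.18 at stage 5. At stage 8, 82 genes had no count in replicate 3 while replicates 1 and 2 both had at least 5 CPM. Such genes numbered 21 for replicate 2, and 0 for replicate 1 and for each stage 5 library. Replicate 3 was the lowest stage 8 library for 43.5% of the genes that rose.

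The mutant libraries of stages 6 and 7 placed the change in time. Of the mutant columns of these stages, 2 of stage 6 and 1 of stage 7 were used, since the others held the same values as wild-type columns. Called genes entered here if both the fitted change and the difference of mean log2(CPM + 0.5), on which courses were measured, were at least 2-fold. For the 3950 such genes that rose, the stage 6 libraries had a median log2 difference from stage 5 of 0.54, the stage 7 library one of 1.55 and the stage 8 libraries one of 2.25. For the 2418 that fell these medians were -0.51 in stage 6, -0.99 in stage 7 and -1.68 in stage 8. The medians of rising and of falling genes therefore both moved at each stage of the span, which does not give the course of single genes.

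By the first stage at which 50% of the log2 change was passed, 972 rising genes (24.6%) belonged to stage 6, 1639 (41.5%) to stage 7 and 1339 (33.9%) to the step after stage 7. Of the falling genes, 487 (20.1%) had passed 50% by stage 6, 939 (38.8%) by stage 7 and 992 (41%) after stage 7. Leaving out either stage 6 library or any 1 stage 8 library gave 23.8% to 26.7% of rising and 18.3% to 21.6% of falling genes at stage 6.

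Not all courses ran one way. At stage 7, 301 of the 3950 rising genes (7.62%) stood more than 2-fold above their stage 8 mean, and 287 of them were above every stage 8 library. The 301 were chosen by these stage 7 and stage 8 values, so their levels are a description. Their median levels were 1.9 CPM at stage 5, 44 CPM at stage 7 and 15 CPM at stage 8. In wild type 74 of the 301 also stood more than 2-fold above stage 8 at stage 7. Among the 4669 genes of wild type's own rising list, 196 (4.2%) did so. Movement against the final direction by more than 2-fold was seen at stage 6 for 20 rising and 36 falling genes, and at stage 7 for 43 rising and 28 falling genes. The stage 7 values rest on 1 library.

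The same calculation placed less of the change by stage 7 in the mutant than in wild type, but not by stage 6. By stage 6, 24.6% of rising and 20.1% of falling genes in the mutant had passed 50% of the change. In wild type these shares were smaller, 18.2% and 11.8%. The share of genes that first passed 50% of the change at stage 7 was 41.5% of rising and 38.8% of falling genes in the mutant, against 65.9% of 4669 rising and 71.4% of 3040 falling genes in wild type. The share that passed it after stage 7 was 33.9% of rising and 41% of falling genes in the mutant, against 15.9% and 16.7% in wild type. Each genotype had 1 stage 7 library, so the stage 7 differences have no replicate check. None of these differences between the genotypes was tested.

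**Figure D4:**
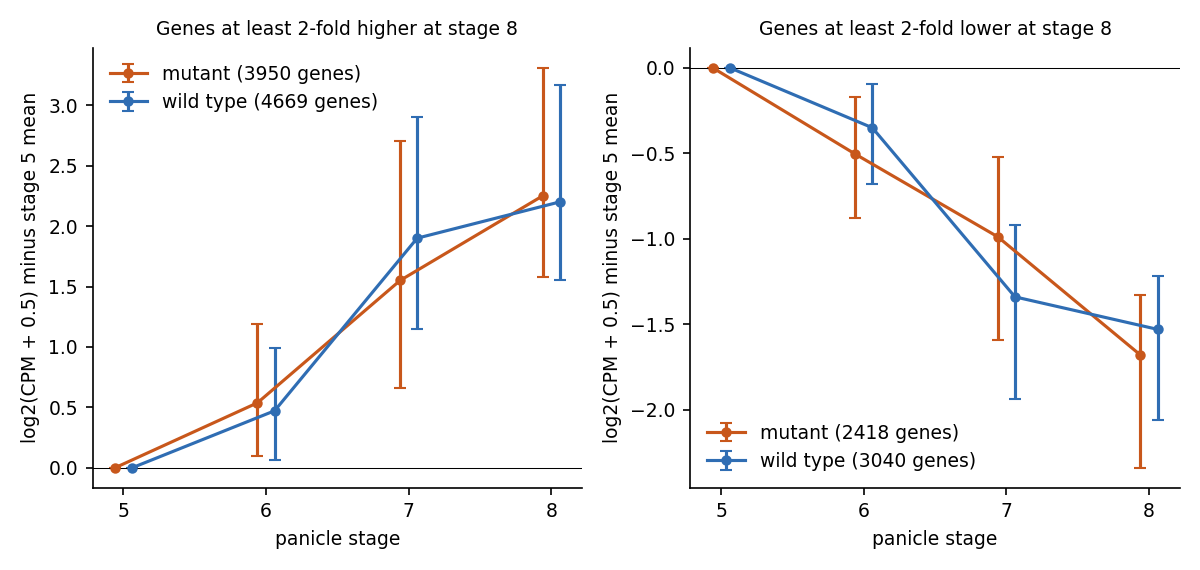
Median (points) and quartiles (bars) of log2(CPM + 0.5) minus the stage 5 mean, by panicle stage, for called genes that rose (left panel) or fell (right panel) at least 2-fold from stage 5 to stage 8 in both the fit and this measure, in the mutant (orange) and in wild type (blue), each with its own gene list. In the mutant the median rise was 1.55 at stage 7 and 2.25 at stage 8, and in wild type 1.9 and 2.2, with 1 stage 7 library per genotype.

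The change from stage 5 to stage 8 ran in the same direction in the mutant as in wild type for nearly all genes called in both. The wild-type fit called 11486 of 21368 genes (53.8%), 6150 higher (28.8%) and 5336 lower (25%). Among 20406 genes tested in both genotypes, 7549 were called in both, which is 85.5% of the mutant calls and 69.3% of the wild-type calls. They held 4198 genes that rose in both, 3349 that fell in both and 2 that went opposite ways. The log2 changes of the genotypes, which come from separate libraries, correlated at 0.933 across genes. Genes are not independent replicates, so this describes the data. These values include mutant stage 8 replicate 3, which correlated better with wild-type stage 8 than with its own group. They are not given without it.

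The sizes were also alike. Among genes that rose in both, the median log2 change was 2.45 in the mutant and 2.32 in wild type. Among genes that fell in both it was -1.22 in the mutant and -1.26 in wild type. Calls in one genotype alone numbered 1281 in the mutant and 3346 in wild type, and 1184 and 3065 of these had the same sign in the other genotype. The median standard error was 0.295 in the mutant and 0.252 in wild type. Calls in one genotype alone do not show a difference between the genotypes, which needs the test of the difference.

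**Figure D5:**
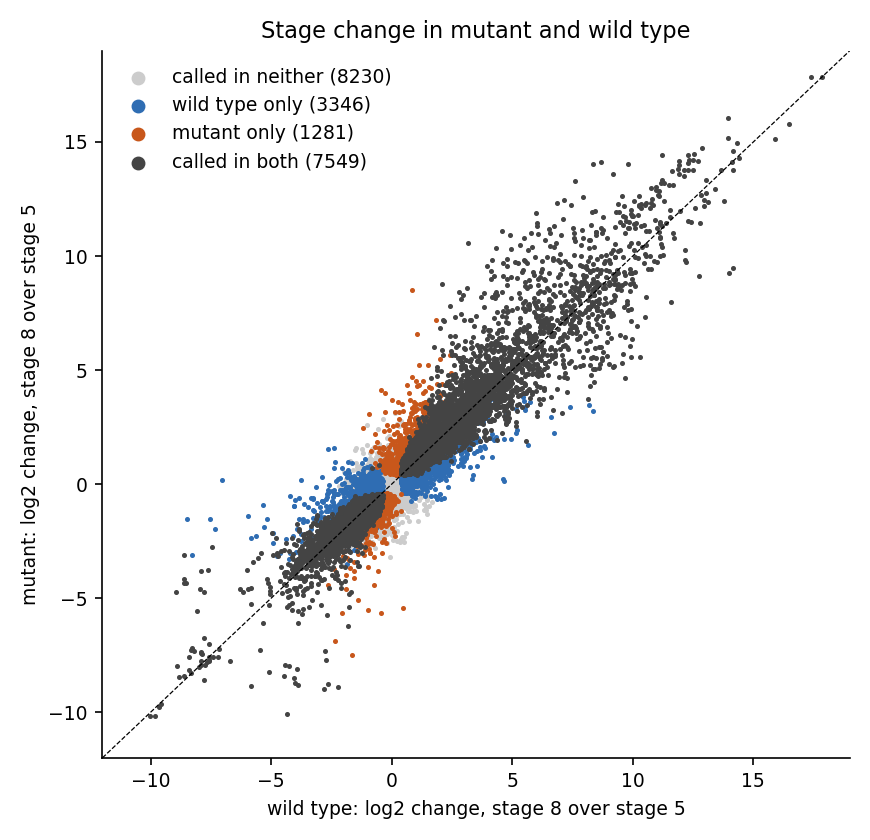
Fitted log2 change from stage 5 to stage 8 in the mutant (vertical axis) against wild type (horizontal axis) for 20406 genes tested in both, coloured by the genotypes in which a gene was called, with the line of equal change dashed. The 7549 genes called in both lie along the line, with 2 exceptions in sign.

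That test, the interaction of genotype and stage over 12 libraries, called 0 of 22883 genes (0.00%) by edgeR's test. Before adjustment, 1464 of the 22883 genes had a p under 0.05 by edgeR's test. Where no gene differs, a share of about 0.05 is expected to pass that threshold. The 95% interval of the difference in log2 change lay within 1 on either side of 0 for 7496 genes (32.8%). For these a difference of 2-fold was outside the interval, while for the others the interval reached 2-fold or lay beyond it. The median standard error of the difference was 0.445.

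DESeq2 called 3 genes in the interaction, which are named here after their values were seen. OsIR64_01g0015650 stood at 41.3, 31.4 and 10.6 CPM in mutant stage 8 replicates 1 to 3 and at 0, 0 and 0.173 CPM at mutant stage 5, and in wild type at 12.7, 15.5 and 13.6 CPM at stage 8 and 1.26, 3.84 and 4.79 CPM at stage 5. It rose in both genotypes, from a lower start in the mutant (DESeq2 adjusted p = 0.00157, edgeR adjusted p = 0.531). OsIR64_06g0028020 had a similar pattern, with 49.6, 38.4 and 8.39 CPM at mutant stage 8, 0.326, 0.173 and 0.173 CPM at mutant stage 5, 18.9, 20.4 and 12.8 CPM at wild-type stage 8 and 0.504, 6.62 and 4.44 CPM at wild-type stage 5 (DESeq2 adjusted p = 0.0335, edgeR adjusted p = 0.719). Replicate 3 was again the lowest mutant stage 8 library for both. OsIR64_09g0013170 stood at 9.92, 8.5 and 6.71 CPM at mutant stage 8 and 12.8, 11 and 11.8 CPM at mutant stage 5, and at 3.27, 3.2 and 3.41 CPM at wild-type stage 8 and 15.1, 21.2 and 14.6 CPM at wild-type stage 5. It was lower at stage 8 in both genotypes, by less in the mutant (DESeq2 adjusted p = 0.0335, edgeR adjusted p = 0.719). For this gene too, replicate 3 was the lowest mutant stage 8 library.

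Mutant stage 8 replicate 3 decided the interaction count. Without it, edgeR called 429 genes, 130 with a higher and 299 with a lower stage change in the mutant, and leaving out any other of the 12 libraries gave 0. The 429 genes were not called once replicate 3 was included, so its values in them, given as a description, are no independent check of its position. Among the 299, the median log2 change from stage 5 was -0.47 in mutant replicates 1 and 2 and 1.25 in wild type, and 145 of them went down in the mutant and up in wild type. Replicate 3 had a median of 1.16 and lay nearer the wild-type change for 279 of the 299. Among the 130, the median change was 0.98 in mutant replicates 1 and 2 and -0.42 in wild type, and 77 went up in the mutant and down in wild type. Replicate 3 had a median of -0.04 there and lay nearer wild type for 105 of the 130. The genotype of that library could not be checked in these files.

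The genes that changed were spread over all 12 chromosome numbers carried by the identifiers. The share of tested genes that rose ran between 21.6% (chromosome 12) and 27.5% (chromosome 10), and the share that fell between 15.7% (chromosome 10) and 22% (chromosome 3), against 24.4% and 18.8% over all tested genes. Genes with consecutive identifiers were compared with the same shares. Of 3235 genes that rose and whose next identifier was tested, 26.2% were followed by a gene that rose, and of 2700 that fell, 22% were followed by a gene that fell. In the set with no count at stage 5, 20 of 370 genes (5.41%) had an identifier of the set next to them on either side, against 2.01% of all identifiers in the table, and no run was longer than 2. Near-identical neighbours may share reads, so counts of such genes are uncertain.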

How the data were processed

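Total RNA of young panicles was sequenced as read pairs (NovaSeq), per the series design text. The values are raw counts as deposited by the authors, who used STAR on the IR64 genome and HTSeq-count, according to the same text. Trimmomatic 0.39 and kallisto are also named, per the submitters' processing notes. The sources used here give no strand setting, annotation version or treatment of shared reads.

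The table held 24 columns and 36099 identifiers. In 3 pairs a mutant and a wild-type column of stage 6 or 7 held identical values. These 6 columns were left out, which left 18 libraries. Genes kept by filterByExpr were tested with edgeR 4.0.16 (glmQLFit, robust, and glmQLFTest; TMM; R 4.3.3), for the 6 mutant libraries alone, the 6 wild-type libraries alone and the interaction over 12 libraries, at a Benjamini-Hochberg adjusted p of 0.05, two-sided. Standard errors came from the log2 change and its F statistic. The CPM scale was common to the 18 libraries, and courses used log2(CPM + 0.5). Named genes had, among called genes with stages that did not overlap and a mean of at least 5 CPM in the higher stage, the largest fitted log2 change or the largest difference of mean CPM each way. The 3 genes of the DESeq2 interaction fell outside this rule. Members, rules and lists were chosen with earlier results of these data known. Alternatives included DESeq2 1.42.0, limma 3.58.1 and leaving out each library. The procedure was tested on simulated counts drawn with the same spread at both stages, so the unequal spread of the mutant stages was not simulated.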

Additional observations from a re-analysis of the deposited data

How the results depend on the processing

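The number of genes called in the mutant stayed within 1.5 times under RLE size factors, total-count scaling, no low-count filter, DESeq2, wider sets of libraries and voom with a spread per stage, the last added after seeing the data, with counts of 9036 to 11640 genes called. With a 2-fold minimum the mutant count was 3885, split into 2767 higher and 1118 lower, and the wild-type count was 5032, split into 3470 higher and 1562 lower, by the construction of that test. Leaving out 1 library gave 5852 to 10796 genes in the mutant, with 2420 to 4938 lower. It gave 0 to 429 genes in the interaction, 0 to 130 higher and 0 to 299 lower. DESeq2 called 3 genes in the interaction, 3 higher, and the cause was not tested. Detection at 5 CPM gave a difference of 1186 genes between stages in place of 2066, by its own construction. The 4 named genes kept their direction in all 60 values (each gene under each alternative) and their call in 59, the exception being OsIR64_11g0025240 under the 2-fold minimum.

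Deviations of same-numbered mutant stage 8 and stage 5 libraries correlated at 0.0174, -0.0764 and -0.0338. Those of differently numbered libraries correlated at -0.0438 to 0.0682. Same-numbered libraries were thus no more alike, though 3 libraries a stage cannot exclude a pairing. With the number as a replicate block, 7944 genes were called in the mutant, 10556 in wild type and 0 in the interaction. The median standard error of the log2 change was 0.628 at 1 to 10 CPM and 0.182 at 100 CPM and over, and the part of depth in this was not tested.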
